A study of Mus musculus with 12 samples.

Results

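Dusp6 and Spry1, feedback inhibitors of receptor tyrosine kinase and ERK signalling, and the AP-1 family genes Fosl2, Atf3 and Batf were examined for liver DNA methylation differences between arsenite-group and control-group mice. Their regions were all entries whose gene symbol was 1 of these 5 names in the 3 tables of differentially methylated regions that the authors deposited. They came to 7 of 1711 regions, namely 2 of normal liver, 1 of non-tumor liver and 4 of tumors. The 5 genes were selected on their listed methylation differences, so their presence, sizes and directions are given as a description without a test.

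The mice of this series were F2 males of the inbred strain C3H/HeN, and reduced-representation bisulfite sequencing (RRBS) was run on DNA of their livers. RRBS sequences short fragments cut at CCGG by the enzyme MspI, so it samples CpG-rich sequence and leaves other CpGs unmeasured. The arsenite groups were AAN (normal liver), AATn (non-tumor liver) and AATt (liver tumor), born to F1 mice with gestational arsenite exposure, and the control group of this series was CCTn (non-tumor liver). Each had 3 samples from animals aged 74 weeks. The control groups CCN (normal liver) and CCTt (liver tumor), also of 3 samples each, belong to an earlier deposit, and their samples were not analysed here. In the normal and tumor lists, a difference by arsenite group thus cannot be told apart from a difference between deposits. The labels give no arsenite dose and do not say whether replicate samples are separate animals. The AATn and AATt samples carry the same numbers, 5, 9 and 13, so tumor and non-tumor tissue may come from the same mice, which the labels do not state.

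An entry sets 3 samples against 3 and holds no value per sample, so no SD, interval or overlap of the groups could be given. Read depth is unknown. The sign of a difference is not defined in the files or labels. It was read as arsenite minus control in every list, and if the authors took it the other way, each direction below turns over. The listed differences were all at least 20 percentage points in size, so absence from a list does not show that a gene was unaffected or even measured. The tissue was bulk liver, in which a change in the cells present and a change of methylation within cells cannot be told apart, and the lists hold no levels by which to check the labelled tissue.

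In the ERK cascade, a growth factor receptor with tyrosine kinase activity switches on Ras, which activates the kinases Raf, MEK and ERK in turn. ERK then induces its own brakes, among them Dusp6, which removes phosphate from ERK, and Sprouty proteins such as Spry1, which act near the receptor. ERK and stress kinases also raise AP-1, a family of leucine zipper dimers of Fos, Jun, Atf and Batf proteins. The pathway is of interest in mouse liver because liver tumors of strains such as C3H often carry activating mutations of Hras.

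The 7 regions were divided between 4 positive and 3 negative differences, and each tissue's regions are set below beside its whole list. Both regions in normal liver were negative, where 69.2% of the 107 listed regions were negative and 30.8% positive. The 1 region in non-tumor liver was positive, as were 59.6% of the 57 regions there, with 40.4% negative. In tumors 3 of 4 were positive and 1 negative, beside 68.7% positive and 31.3% negative among the 1547 tumor regions. Counts this close to the whole lists say nothing particular about these genes. Their median size was 23.5 points in the authors' deposited tables, beside 22.95 points over all 1711 regions. By the gene named in each entry, a region was listed for 0.42% of 21896 protein-coding RefSeq genes in the normal list, 0.228% in the non-tumor list and 5.06% in the tumor list.

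**Figure D1:**
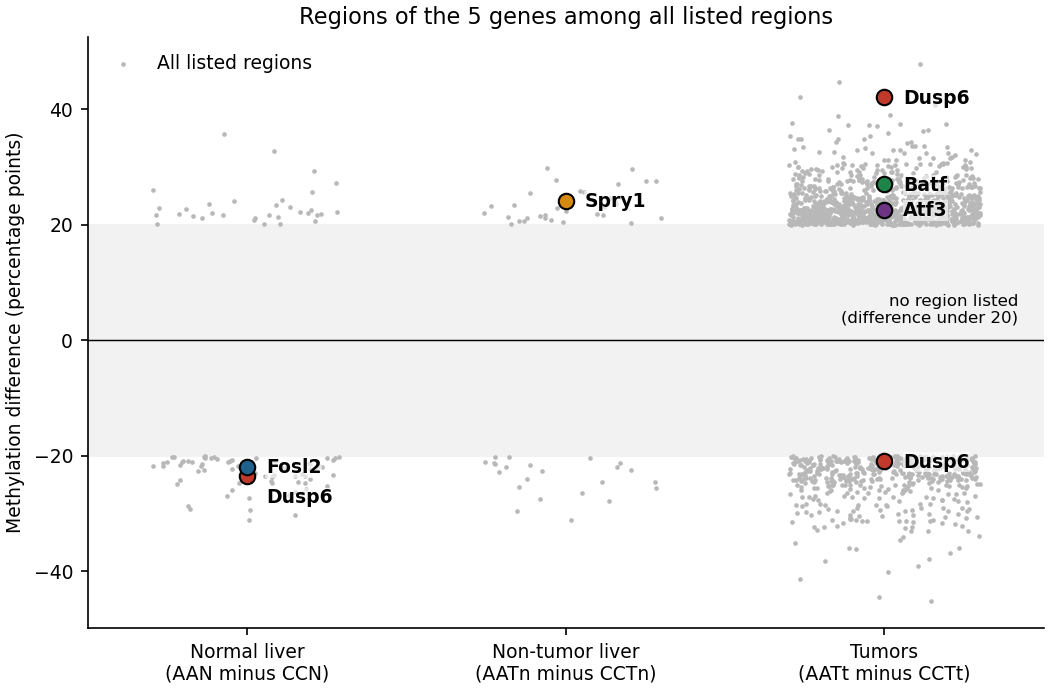
Methylation difference in percentage points (y axis, arsenite minus control as read here) of every listed region (grey points, spread sideways at random) in each of the 3 lists, with the 7 regions of the 5 genes in colour. The distal Dusp6 region in tumors stands near the top of its list at 42.1 points, and the other 6 lie between 20.97 and 26.97 points in size.

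Dusp6, the phosphatase gene that limits ERK activity, was the only 1 of the 5 with regions in more than 1 list. Over all genes, 37 of 1473 (2.51%) were in 2 or more lists and 29 (1.97%) had 3 or more regions. Dusp6 had 3, which lay within 76605 bp of chromosome 10 (mm10) on both sides of the gene, itself 4259 bp long (99263231 to 99267489, plus strand). None overlapped the gene or another of the 3.

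The distal upstream region of Dusp6 carried the largest difference among the 7. In tumors the authors' deposited table listed it at 42.1 points (chromosome 10, 99203676 to 99204400, 58831 bp upstream of the transcription start site, TSS). Methylation there was thus higher in the AATt than in the CCTt samples. The difference ranked 6 of 1547 tumor regions by size and 4 of the 1063 positive ones. Of its 24 CpG sites, 22 were called differentially methylated (DMCs, 91.7%). These neighbouring sites come from the same 3 against 3 samples, so their number does not measure how well the difference is supported. The median tumor region had 4 CpG sites and 2 DMCs, and only 45 tumor regions had 24 sites or more. At 725 bp it was long for the list (median 139 bp), with 3.31 sites per 100 bp beside a median of 4.07. It lay outside any RefSeq gene span, 5602 bp beyond the end of Poc1b, a centriole protein gene, and 12277 bp from the noncoding transcript Gm34574. A TSS of Gm34574, 24257 bp away, was nearer than that of Dusp6.

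The downstream region of Dusp6 in tumors had the opposite sign. The authors' deposited table gave -21.0 points (chromosome 10, 99280130 to 99280280, 16900 bp downstream of the TSS), the smallest of the 7 and close to the limit of 20 points. It rested on 2 DMCs among 5 sites and ranked 388 of 484 negative tumor regions. It also lay outside any gene span, 12641 bp past the end of Dusp6. The tumor list held 170 genes with 2 or more regions, of which 66 had both signs, so mixed signs at 1 gene were common in this list.

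The normal-liver region of Dusp6 lay between the gene and the distal tumor region. In normal liver the authors' deposited table listed it at -23.5 points (chromosome 10, 99234303 to 99234518, 28713 bp upstream), with lower methylation in the AAN than in the CCN samples. It held 4 CpG sites, of which 2 were DMCs, and ranked 24 of 74 negative regions. It fell inside the span of the noncoding transcript Gm34777, whose TSS was 1228 bp away and so much nearer than that of Dusp6. The gap to the distal tumor region was 29903 bp and that to the downstream one 45612 bp, so the opposite signs in normal liver and tumors refer to different positions. Of 23 genes listed in both normal liver and tumors, 16 were negative in normal liver, and 10 of these, Dusp6 included, had a positive tumor region.

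**Figure D2:**
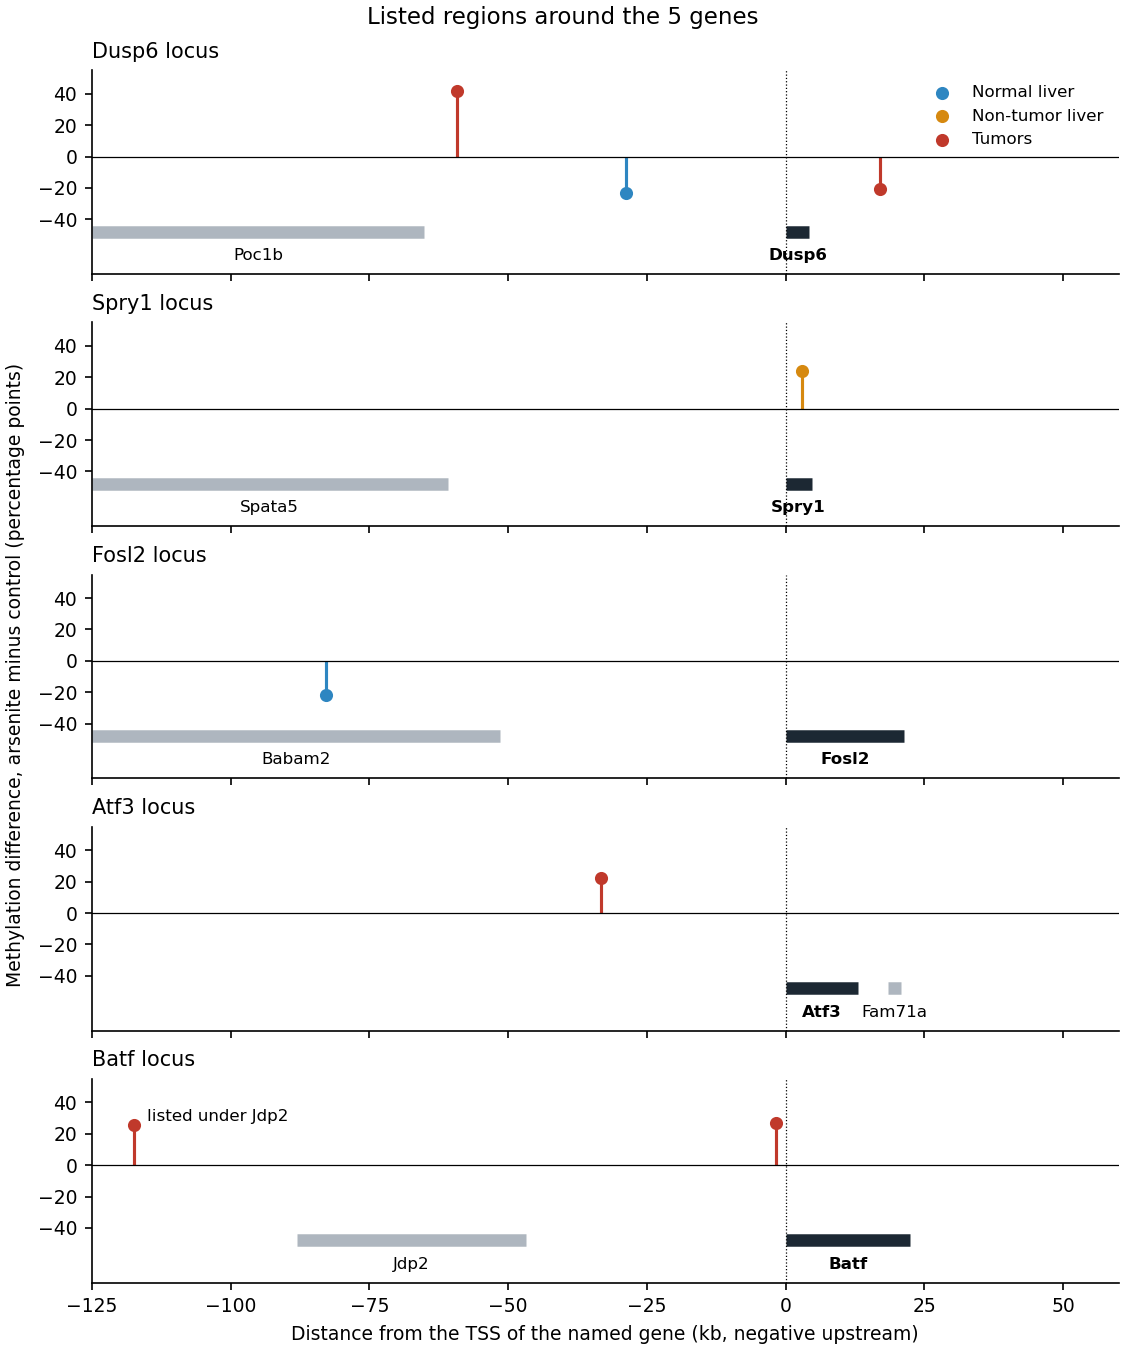
Listed regions around each of the 5 genes (vertical lines ending in a point, coloured by tissue), with distance from the TSS in kb along the direction of transcription on the x axis and methylation difference in percentage points on the y axis. Bars below mark the spans of protein-coding genes, the named gene in black. Of the 7 regions, only that of Spry1 (at 24.2 points) falls inside its own gene, and Dusp6 has regions on both sides.

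Spry1, an antagonist of fibroblast growth factor and other receptor signals, had the only region inside the gene it was listed for. In non-tumor liver the authors' deposited table listed it at 24.2 points (chromosome 3, 37642678 to 37643055, 2729 bp downstream of the TSS), with higher methylation in the AATn than in the CCTn samples. The gene spans 4653 bp (37639947 to 37644599, plus strand), and exons were not told apart here. Of 7 CpG sites, 6 were DMCs, and this share of 85.7% was the highest of the 57 regions in that list, where the median was 33.3%. In size it was less extreme and ranked 13 of 34 positive regions. Both groups of this comparison belong to the same series. Spry1 had no region in the normal or tumor list.

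Fosl2, which encodes the AP-1 subunit Fra-2, had the most distant of the 7 regions. In normal liver the authors' deposited table listed it at -21.9 points (chromosome 5, 32053629 to 32053701), with lower methylation in the AAN than in the CCN samples. The position is 82771 bp upstream of Fosl2 and inside the span of Babam2, a gene of a BRCA1-associated DNA repair complex. Only 1 of its 4 sites was a DMC, as in 66.4% of the normal-liver regions. It ranked 39 of 74 negative regions, in the middle of the list.

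Atf3, an AP-1 gene induced by many kinds of cell stress, likewise had a distant region with 1 DMC. In tumors the authors' deposited table listed it at 22.6 points (chromosome 1, 191216438 to 191216641), with higher methylation in the AATt than in the CCTt samples. It lay 33106 bp upstream of Atf3, outside any gene span, and 7813 bp from the noncoding transcript D730003I15Rik. The region rested on 1 DMC among 5 sites, a share of 20% that 1509 of the 1547 tumor regions equalled or passed, and it ranked 576 of 1063 positive regions.

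Batf, a partner of Jun proteins known from lymphocyte differentiation, had the region closest to its listed TSS. In tumors the authors' deposited table listed it at 26.97 points (chromosome 12, 85684953 to 85685006, 1714 bp upstream), with higher methylation in the AATt than in the CCTt samples. Its 3 CpG sites, within 54 bp, were all DMCs, as in 29 tumor regions (1.87%), and 3 was the smallest number of sites of any listed region. It ranked 183 of 1063 positive regions. Only 7.82% of tumor regions lay as close to their listed TSS or closer.

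A further AP-1 gene near Batf was listed in tumors, also with a positive difference, as were 68.7% of the tumor regions. Jdp2, which encodes a Jun dimerization protein, has its TSS 87615 bp from that of Batf. The authors' deposited table gave its region at 25.6 points (chromosome 12, 85569221 to 85569490, 29615 bp upstream of Jdp2). It had 1 DMC among 3 sites and lay 115463 bp from the Batf region. The noncoding transcript Gm32348 (85569824 to 85586552) lies between that region and Jdp2. No other region of another gene was listed within 500 kb of the TSS of any of the 5 genes.

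**Figure D3:**
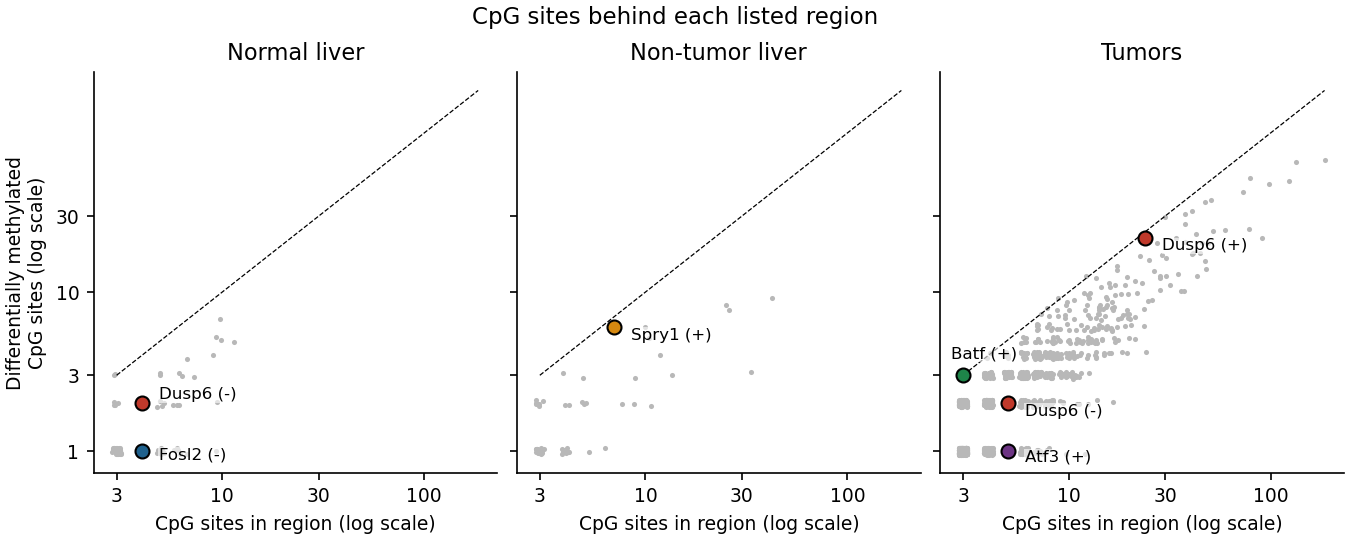
Number of differentially methylated CpG sites (y axis, log scale) against number of CpG sites (x axis, log scale) per listed region in the 3 tissues, with the 7 regions in colour and the sign of each difference in brackets. Grey points are all listed regions, shifted slightly at random, and on the dashed line every site is differentially methylated. The distal Dusp6 region in tumors (22 of 24 sites), Spry1 (6 of 7) and Batf (3 of 3) lie on or near that line, and Fosl2 and Atf3 rest on 1 site.

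The promoters themselves held no listed region. In none of the 3 lists did a region overlap the 250 bp before the RefSeq start of any of the 5 genes, and over all genes 37 of 1711 regions (2.16%) overlapped a 300 bp promoter window. The sequences of 3 promoters (RefSeq, GRCm38.p6) are shown because they differ in how many CpGs could carry methylation. That of Dusp6 (chr10:99262981-99263230, plus strand) holds 16 CpGs, and that of Batf (chr12:85686470-85686719, plus strand) holds 7, with CpGs in capitals in both. That of Atf3 (chr1:191183334-191183583, minus strand) holds 24, and capitals mark a CRE-like motif with a CpG at its centre.
Dusp6: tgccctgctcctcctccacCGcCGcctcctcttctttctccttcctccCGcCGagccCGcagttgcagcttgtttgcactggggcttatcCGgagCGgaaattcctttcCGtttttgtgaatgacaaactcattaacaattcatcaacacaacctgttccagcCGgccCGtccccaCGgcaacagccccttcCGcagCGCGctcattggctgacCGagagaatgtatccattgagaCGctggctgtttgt
Batf: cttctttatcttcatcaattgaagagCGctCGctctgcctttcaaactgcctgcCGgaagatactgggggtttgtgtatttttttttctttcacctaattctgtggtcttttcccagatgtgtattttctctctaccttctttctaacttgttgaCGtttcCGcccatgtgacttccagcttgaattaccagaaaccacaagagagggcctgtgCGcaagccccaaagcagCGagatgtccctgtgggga
Atf3: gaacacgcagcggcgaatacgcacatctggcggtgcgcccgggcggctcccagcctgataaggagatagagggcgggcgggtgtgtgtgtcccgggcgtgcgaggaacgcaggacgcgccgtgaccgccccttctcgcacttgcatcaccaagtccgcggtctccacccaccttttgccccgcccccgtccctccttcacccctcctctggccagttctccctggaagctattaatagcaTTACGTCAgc

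The same 250 bp windows of all 32851 RefSeq promoters had a median of 6 CpGs. Spry1 and Fosl2 had 23 each, more than 86.7% of promoters, and Batf stood near the middle, above 53.7%. Each of the 5 windows held at least 1 CCGG, the MspI site that RRBS needs, which 47.1% of all windows hold. Motifs were searched on both strands. The AP-1 motif TGANTCA (in 6.75% of all promoters), the CRE motif TGACGTCA (1.55%) and the ETS motif CCGGAAGT (2.88%), which contains CCGG, had no match in the 5 windows. TNACGTCA, a looser form of the CRE motif that includes TGACGTCA and was chosen after the Atf3 promoter had been read, matched there as TTACGTCA and in 2.52% of promoters. These matches are letters in a window and show nothing about binding or methylation in these livers.

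The wider pathway was viewed through 6 lists of 168 genes in all, from growth factor genes to ERK-responsive ones. In normal and non-tumor liver no gene of these lists beyond Dusp6, Fosl2 and Spry1 had a region. Of all protein-coding genes, 0.42% were listed in normal and 0.228% in non-tumor liver, so this absence says little. In tumors 19 of the 168 genes (11.3%, beside 5.06% of all protein-coding genes) had 25 regions, of which 18 were positive and 7 negative, a positive share of 72% beside 68.7% in the whole list. Dusp6, Atf3 and Batf are among the 19 because they were selected for being listed. Without the 5 genes, 16 of 163 (9.82%) were listed, with 15 positive and 6 negative regions.

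In a list of growth factor genes, 4 of 41 (9.76%, beside 5.06% of all protein-coding genes) had tumor regions, 3 positive and 2 negative. All 4 were of the fibroblast growth factor family, to which many of the 41 genes belong. Genes of this family were grouped by name, and whether each product acts on a receptor was not examined. The region closest to a start was that of Fgf14, 110 bp downstream of its TSS, at 20.2 points in the authors' deposited table. Fgf15, the gut hormone gene that restrains bile acid synthesis in the liver, stood at 21.3 points in the authors' deposited table, 3979 bp upstream. Fgf9 was at -23.1 points and Fgf16 had both signs, -23.7 and 20.5 points, more than 100 kb from its TSS, in the authors' deposited table.

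In a list of 27 receptor tyrosine kinase genes, 8 (29.6%, beside 5.06% of all protein-coding genes) had tumor regions, 9 positive and 3 negative, beside 68.7% positive in the whole list. That list left out 31 other genes of the family, of which 5, namely Ror2, Flt3, Epha8, Ephb1 and Ephb3, were listed with 5 positive and 4 negative regions. Over all 58 genes, counted after the values were seen, 13 (22.4%) were listed with 14 positive and 7 negative regions. Fgfr1, a fibroblast growth factor receptor gene, had a region of 52 CpG sites, 24 of them DMCs, at 24.3 points in the authors' deposited table, 3336 bp upstream of its TSS. A further Fgfr1 region stood inside the gene at 23.4 points in the authors' deposited table. Fgfr2 was listed there at 22.7 points, for a region 47297 bp upstream and inside the span of Gm33607. Of the VEGF receptor genes, Flt1, with 4 regions, and Kdr were positive and Flt4 was negative. The Flt1 regions lay inside Flt1. That of Kdr lay 142664 bp from its TSS, outside any gene span, and that of Flt4 inside the span of 1700024J04Rik. The neurotrophin receptor gene Ntrk3, whose region was 977786 bp from its TSS, was positive. Erbb4, Flt4 and Kit were negative, at -24.1, -20.2 and -20.1 points in the authors' deposited table, with 1 DMC each. The 8 listed receptor genes had a median span of 93.0 kb, against 46.9 kb for the 19 others and 17.1 kb for all protein-coding genes. Genes listed in tumors had a median of 37.7 kb. The part of gene length in the receptors' count was not tested.

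No gene of the core cascade was listed in any tissue, 0 of 24 genes, and at the 5.06% of all protein-coding genes listed in tumors a list this short says little. Of 28 feedback inhibitor genes, 2 (7.14%) were listed in tumors, and without Dusp6 and Spry1 it was 1 of 26 (3.85%). That gene was Dusp9, an X-linked phosphatase gene for ERK, at -21.3 points in the authors' deposited table, with 6 DMCs among 17 sites 2142 bp upstream of its TSS. The Dusp9 region and the downstream Dusp6 region were negative, and the distal Dusp6 region was positive.

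Of 23 AP-1 family genes, 4 (17.4%, beside 5.06% of all protein-coding genes) had a tumor region, and all 4 regions were positive, beside 68.7% of the tumor list. Atf3 and Batf were selected with these values known, and without the 5 genes 2 of 20 (10%) remain, Jdp2 and Maf. Maf was at 33.4 points in the authors' deposited table, with all 3 sites DMCs but 176763 bp from its TSS. Among the Fos and Jun genes, Fosl2 was listed in normal liver only, and Fos, Fosb, Fosl1, Jun, Junb and Jund were absent from all lists. Of 26 ERK-responsive genes, mostly transcription factor genes and again including Fosb, 1 (3.85%, beside 5.06% of all protein-coding genes) was listed in tumors. It was Ets1 (25.9 points in the authors' deposited table, 283868 bp from its TSS), and neither Egr1 nor Myc was listed.

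**Figure D4:**
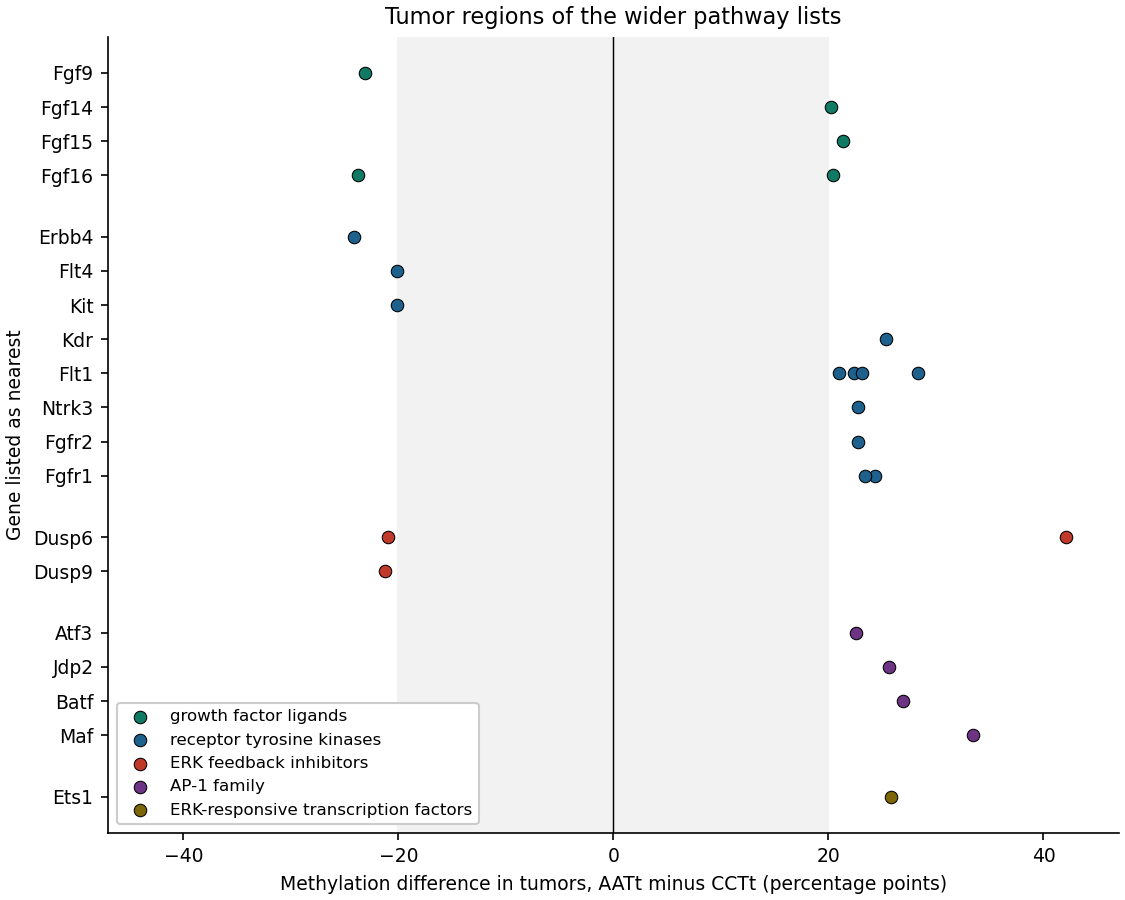
Methylation difference in tumors in percentage points (x axis, AATt minus CCTt as read here) of every listed region of the wider pathway lists, with 1 line per gene named as nearest and a colour per list. No difference under 20 points in size (grey band) was listed. The 4 AP-1 family genes lie on the positive side, and Dusp6 and Fgf16 have regions on both sides.

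Which gene a region belongs to rests on the TSS listed by the authors for 6 of the 7 regions. A noncoding transcript had a nearer RefSeq TSS for every region of Dusp6, Fosl2 and Atf3. For the distal Dusp6 region it was Gm34574 at 24257 bp, and for the downstream one Gm34921 at 9231 bp. For Fosl2 it was Gm40277 at 36719 bp, and for Atf3 D730003I15Rik at 7813 bp. Only the Spry1 region overlapped the span of its gene, and by gene span the normal and tumor lists held 0 regions of these 5 genes. For gene spans and nearer noncoding transcripts no share over all 1711 regions is given here. These counts therefore cannot be called particular to the 5 genes. Within 10 kb of the TSS lay 2 of the 7, those of Spry1 and Batf. Over the whole lists this share was 36.4% in the normal, 29.8% in the non-tumor and 24.6% in the tumor list. No region of the 5 genes shared a base with a region of another tissue, which was also rare over all genes, at 33 of 1711 regions (1.93%).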

How the data were processed

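RRBS libraries were made from liver DNA cut with MspI, per the labels' protocols. Per the submitters' processing notes, the build was mm10 and the tools were Bismark, Trim Galore, methylKit and bedtools 2.25.0. How regions were called, and with which coverage and significance limits, is not given in the sources used here. The deposited lists give each region's signed methylation difference, held as a score in percentage points, with its CpG sites, DMCs and nearest TSS, per the file headers. No per-sample value or depth was used, so no test was made.

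Length and TSS distance (within 1 bp) were checked in all 1711 entries. Of these, 1705 matched the RefSeq table of GRCm38.p6, the same primary assembly as mm10, 1679 by accession. Ranks, medians, neighbours, gene spans and motifs were computed with Python 3.11.15, pandas 2.3.3 and numpy 2.4.6. Region sequences were not used here. All regions of the 5 genes, each listed gene of the wider lists and other regions within 500 kb are named. The genes and lists were chosen with earlier results of these data known. Alternatives were a minimum of 2 DMCs, a difference of at least 25 points, assignment by gene span, and limits of 100 kb or 10 kb on TSS distance.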

Additional observations from a re-analysis of the deposited data

How the results depend on the processing

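Counts of regions moved under stricter settings by construction, since fewer regions remain. For the 5 genes, the 2 negative regions in normal liver became 1 with at least 2 DMCs, and 0 with at least 25 points, by gene span or within 10 kb of the TSS. The positive region in non-tumor liver became 0 with at least 25 points. The 3 positive tumor regions became 0 by gene span and 1 within 10 kb, and the 1 negative tumor region became 0 with at least 25 points, by gene span or within 10 kb. For the wider lists, the 18 positive tumor regions became 7 with at least 25 points, 9 by gene span, 11 within 100 kb and 4 within 10 kb. The 7 negative ones became 3 with at least 2 DMCs, 0 with at least 25 points, 2 by gene span and 1 within 10 kb. With the 5 genes left out, a setting chosen after seeing the data, the wider lists had 0 regions in normal and 0 in non-tumor liver. Of all protein-coding genes, 0.42% and 0.228% were listed there. No regions of the 5 genes in different tissues overlapped or lay within 1000 bp of each other, as in all but 33 of the 1711 regions (1.93%) under either setting. No paired analysis was possible because the deposited lists hold no values per sample, and for the same reason no sample could be left out. Depth, which is unknown here, limits which regions could be listed.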

Other observations

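Among the 58 tumor regions with at least 20 CpG sites, only 2 had at least 90% of their sites called differentially methylated, limits chosen after the values were seen. These were the distal Dusp6 region (22 of 24 sites) and a region listed for Zfp747, a zinc finger protein gene, where all 30 sites were DMCs. The signs were opposite, at 42.1 points for Dusp6 and -41.3 points for Zfp747 in the authors' deposited table (chromosome 7, 127363777 to 127364360, 11690 bp downstream of the TSS). In the normal and non-tumor lists every gene was named once, with 107 regions for 107 genes and 57 for 57, while the tumor list had 1547 regions for 1347 genes.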
